A study of Mus musculus with 16 samples.

Results

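Oligodendrocyte precursors, also called polydendrocytes or NG2 glia, are a dividing glial population of the adult brain. They carry the platelet-derived growth factor receptor Pdgfra and the NG2 proteoglycan Cspg4 on their surface, receive input from neurons through glutamate and GABA receptors, and give rise to the oligodendrocytes that wrap axons in myelin. A precursor that leaves this state passes through a short committed stage marked by the receptor Gpr17, loses Pdgfra, and only then turns on the myelin genes. Here the precursors of the mouse hypothalamus and preoptic area (hypothalamus-POA) were chosen by a rule on the unique molecular identifiers (UMIs, each standing for 1 captured transcript) of single cell barcodes, and 2298 of the 55675 barcodes kept from 16 mice met it. To be kept, a barcode needed a gene number above 200 and below 4000, and mitochondrial transcripts had to make up less than 15% of its UMIs. A kept barcode counted as a precursor if it had at least 1 UMI of *Pdgfra* and at least 1 of the 6 panel genes *Cspg4*, *C1ql1*, *Vcan*, *Cacng4*, *Neu4* and *Matn4*, fewer than 2 UMIs of *Gpr17*, and at most 1 of 13 genes of other cells (*Mog*, *Mag*, *Ermn*, *Agt*, *Aqp4*, *Flt1*, *Cldn5*, *C1qa*, *C1qb*, *Tmem212*, *Acta2*, *Dcn* and *Col1a1*).

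The study asked how tamoxifen, a drug that binds estrogen receptors, alters gene expression in the hypothalamus-POA, and whether the effect needs estrogen receptor alpha (*Esr1*) there. Each of the 16 Drop-seq libraries came from 1 adult female mouse of mixed CD-1;129P2 background, aged 8 to 10 weeks at the start. The 4 groups were wild-type (WT) mice given corn oil vehicle with ethanol (WT oil, n = 3), WT mice given 0.1 mg/kg tamoxifen (WT tamoxifen, n = 5), and conditional *Esr1* knockout (cKO) mice given the same vehicle (cKO oil, n = 4) or the same tamoxifen (cKO tamoxifen, n = 4). All mice received 28 daily subcutaneous injections and were killed 2 h after the last one. The cKO mice carried a floxed *Esr1* and the Tg(Nkx2-1-Cre)2Sand transgene, so recombination was driven by the *Nkx2-1* promoter, and WT mice were littermates without Cre. *Nkx2-1* itself gave a UMI in 3 of the 2298 precursors (0.131%, exact 95% binomial interval 0.0269 to 0.381%) against 6.0% of neurons, so the number of precursors in which *Esr1* had been recombined cannot be read from these data.

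The files held 5403 to 13515 barcodes per library, of which 1746 to 5568 were kept and 84 to 230 were precursors, with 76987 to 218762 precursor UMIs per library and 2322119 in all. The median precursor held between 634.5 UMIs, in cKO oil mouse 1, and 1232.5 UMIs, in WT oil mouse 2. Levels are given below as counts per 1000000 precursor UMIs of a mouse (CPM), as mean ± SD over mice, and since the 3′ UMIs count transcripts they were not divided by gene length. Binomial intervals cover counting error only.

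Some libraries need to be named before the results. WT oil mouse 3 and cKO tamoxifen mouse 3 stood apart from the other 14 libraries along the first principal component of the precursor sums, which carried 28.3% of the variance: they lay at 48.97 and 41.99, and the others between −17.0 and −0.14. Of 4835 genes tested, 449 were lower and 106 were higher in both than in each of the other 14 libraries (11.5% together). *Myo3a*, an unconventional myosin, had 0 CPM in both against 1520 to 4099 CPM in the others, and *Dcc*, a netrin receptor, had 0 and 4.57 CPM against 248 to 685 CPM. The difference was not particular to precursors, since all kept cells of both libraries together held 5 *Myo3a* UMIs and those of the other 14 held 180020. In all, 477 genes had UMIs in kept cells of each of the other 14 libraries and none in these, against 5 to 214 genes missing from any single one of the 14. Separately, 520 barcode sequences were kept in more than 1 library, and 362 of them fell only among 4 libraries (WT tamoxifen mice 4 and 5, cKO oil mouse 4 and cKO tamoxifen mouse 4). Each pair of those 4 libraries shared 303 to 359 barcodes, while the other 114 pairs shared 42 at most (median 1). Of the precursors, 70 (3.05%) had a shared barcode, and 63 of these were among the 592 precursors of those 4 libraries. Of 100 medians of log2 fold change described below (20 gene lists in 5 comparisons), 30 changed sign without the 2 libraries that stood apart, 21 without precursors holding 2 or more neuron markers and 6 without shared barcodes.

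The study's methods state that 4 mice were processed a day. The labels do not say which mice shared a day, but library numbers 1 to 4, 5 to 8 and 9 to 12 each held 1 mouse of every group, and the last 4 held 2 WT tamoxifen mice and 1 mouse of each cKO group. Shares are also compared within these fours of successive library numbers.

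**Figure D1:**
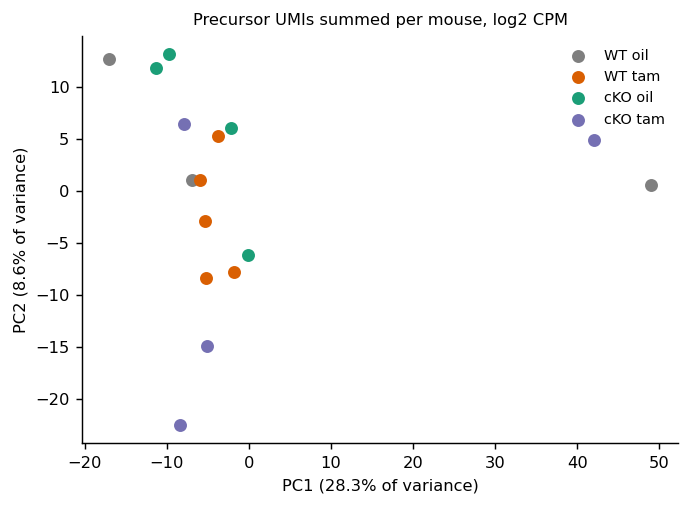
First (PC1, x axis) and second (PC2, y axis) principal components of log2 CPM of precursor UMIs summed per mouse, 1 point per mouse, coloured by group. WT oil mouse 3 and cKO tamoxifen mouse 3 lie at 48.97 and 41.99 on PC1 and the other 14 mice between −17.0 and −0.14, with the 4 groups mixed among them.

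The genes of the rule describe what was selected, and their levels are no test. *Pdgfra* (mm10 5:75151322-75198206) stood at 1921 ± 199 CPM in precursors (n = 16 mice, 1587 to 2230) and at 21.9 CPM in all other kept cells. The detection of the panel genes ranged from 24.2% of precursors for *C1ql1* (11:102939264-102946716), a secreted C1q-like protein, to 74.2% for *Cacng4* (11:107732357-107794706), an auxiliary subunit of AMPA receptors. *Cspg4* (9:56865104-56899870), the NG2 proteoglycan, was seen in 41.5%, *Vcan* (13:89655309-89743027), the matrix proteoglycan versican, in 61.5%, the sialidase gene *Neu4* (1:94020493-94028334) in 31.9%, and *Matn4* (2:164389393-164405160), a matrilin, in 35.3%. Each panel gene was thus missed in a sizeable part of the precursors, and only 39 precursors held all 6.

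Near its edges the rule cut through a continuum. Of the precursors, 1153 (50.2%) rested on a single *Pdgfra* UMI, 20.3% on a single panel gene, and 505 (22.0%) held the 1 *Gpr17* UMI that the rule allowed. *Olig1*, a transcription factor of the whole oligodendrocyte lineage that the rule did not use, was seen in 74.8% of precursors with 1 *Pdgfra* UMI and in 85.1% of those with 3 or more, which were also deeper (median 757 against 1165 UMIs). Just outside, 344 barcodes had *Pdgfra* but no panel gene, and *Olig1* was seen in 26.2% of them. A further 463 barcodes had at least 3 panel genes and no *Pdgfra* UMI, and 74.3% of these held *Olig1*, close to the 78.9% of all precursors. The 173 barcodes left out for 2 or more *Gpr17* UMIs held *Olig1* in 82.1%, and the 109 left out for 2 or more genes of other cells had 1428 CPM of the myelin gene *Mbp* against 542 CPM over all precursors pooled.

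Genes outside the rule gave the same identity in every mouse. *Olig1* stood at 2046 ± 292 CPM in precursors and 186 CPM in other kept cells, and *Olig2*, its partner in specifying the lineage, at 566 ± 78.8 against 48.0 CPM. *Myt1*, a zinc finger factor of the lineage, stood at 231 ± 43.4 against 16.6 CPM. *Cspg5*, the neuroglycan C core protein, stood at 1632 ± 336 against 140 CPM. The 12 genes with the largest ratio to other cells included, in order, *3110035E14Rik*, *Emid1*, *Rlbp1*, *Cdo1*, *Susd5*, *Olig1*, *Cspg5*, *Snx22*, *Olig2*, *Myt1* and *Traf4*, and the 12 had median log2 ratios from 3.94 down to 3.20. Each of the 12 was higher in precursors than in other kept cells in 16 of 16 mice. These ratios describe cells that were picked by correlated genes, and they were not tested.

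The levels were then set beside those of the next stages of the lineage, as a description. Committed cells (367 barcodes with 2 or more *Gpr17* UMIs) and mature oligodendrocytes (8191 barcodes with at least 2 of *Mog*, *Mag* and *Ermn* and no *Pdgfra*) were taken by similar rules. Of the 24 precursor identity genes in the files, 22 were higher in precursors than in other kept cells in all 16 mice, with a median log2 ratio of 2.52 against 0.07 over all 11577 genes with at least 20 precursor UMIs. Of those 11577 genes 795 (6.87%) were higher and 767 (6.63%) were lower in every mouse, which is the background for such counts here and below. *Ptprz1*, a receptor phosphatase and chondroitin sulfate proteoglycan, went from 2667 CPM in precursors to 1585 in committed cells and 68.2 in mature cells, and the protease inhibitor gene *Serpine2* from 2031 to 1275 and 81.8 CPM. Of 21 lineage transcription factors 13 were higher than in other cells in every mouse and 3 were lower. Among the higher was *Sox6*, a factor that holds cells in the precursor state, at 414 CPM in precursors, 487 in committed cells and 27.0 in mature cells. The lower ones were *Sox9* (27.7 against 177 CPM), *Myrf* (10.9 against 34.2 CPM) and *Id3* (55.2 against 268 CPM), named after their values were seen. *Sox10*, which acts throughout the lineage and was named after its values were seen, stood at 294, 337 and 208 CPM.

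The named commitment genes stood below their levels in committed cells. Against all other kept cells, 4 of 11 commitment genes were higher in precursors in every mouse and none was lower. *Bmp4* and *Enpp6*, markers of newly committed oligodendrocytes, stood at 5.59 and 5.93 CPM in precursors, with 13 UMIs each in all 2298 cells, against 200 and 454 CPM in committed cells. *Bcas1*, which marks early myelinating cells, stood at 467 CPM in precursors and 2182 in committed cells, and *Sirt2*, a deacetylase of myelin, at 284 and 1661 CPM. The calcium channel gene *Itpr2* was already at 247 CPM in precursors and 406 in committed cells. Of 14 myelin genes 11 were lower in precursors than in other kept cells in every mouse. *Mbp*, myelin basic protein, stood at 546 CPM in precursors, 2100 in committed cells and 7173 in mature cells. *Cldn11*, the tight junction claudin of myelin, stood at 13.2, 615 and 3609 CPM in the same order.

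**Figure D2:**
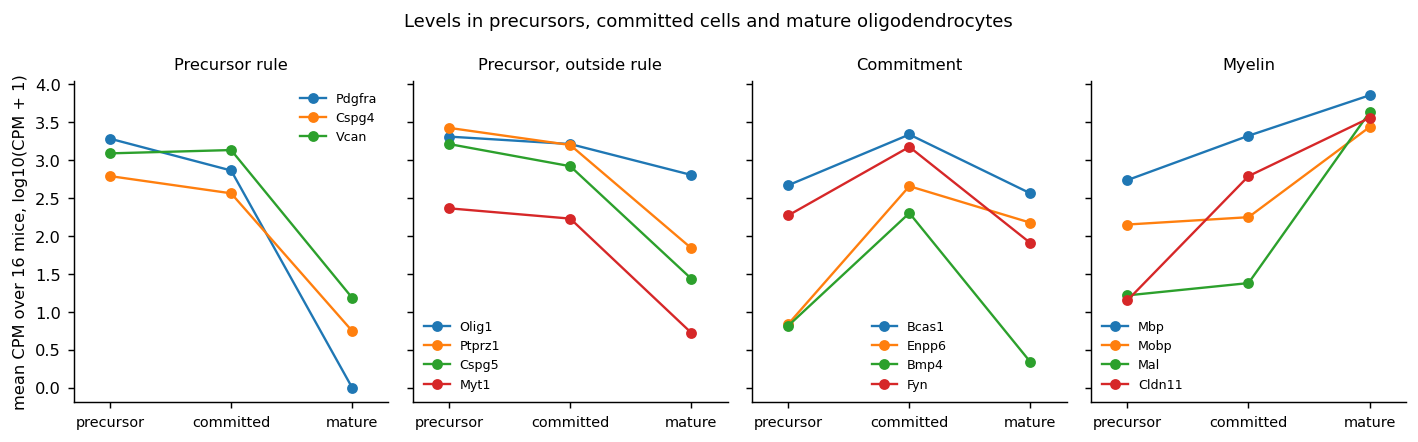
Mean CPM over 16 mice, drawn as log10(CPM + 1), of genes of the rule, precursor genes outside the rule, commitment genes and myelin genes (panels) in precursors, committed cells and mature oligodendrocytes (x axis). *Ptprz1*, *Cspg5* and *Myt1* fall toward mature cells, *Enpp6* and *Bmp4* peak in committed cells at 454 and 200 CPM, and *Mbp* climbs from 546 to 7173 CPM.

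Markers of other cells were counted in precursors, and whether their UMIs came from other cells was not tested. *Col1a1* had 0 UMIs in precursors and none of the other 12 excluded genes exceeded 82 UMIs, which the rule itself limits. Neuron markers, which the rule did not limit, summed to 2113 ± 496 CPM (1167 to 3026, all 7 above 0, led by the noncoding RNA *Meg3* at 803 CPM) against 20571 CPM in neurons, and 698 precursors (30.4%) held at least 2 of them. Astrocyte markers summed to 1414 ± 302 CPM (all 6 above 0, led by the glutamate transporter *Slc1a2* at 821 CPM) against 14141 CPM in astrocytes. All 6 mature oligodendrocyte markers were above 0 and 210 precursors held at least 2 of them, with *Mobp* at 141 against 2735 CPM in mature cells and *Mog* at 2.69 against 1836 CPM. The endothelial sum was 92.8 ± 52.4, the microglial 49.7 ± 23.3, the mural 107 ± 105, the fibroblast 41.8 ± 66.2 and the ependymal 28.03 ± 30.1 CPM. Hemoglobin genes summed to 615 ± 972 CPM and reached 3694 CPM in cKO tamoxifen mouse 3, where 407 of the 451 *Hbb-bs* UMIs came from 1 precursor. Scrublet called 19 precursors doublets.

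Genes of the receptors through which neurons reach precursors are given as levels beside other cells. Their counts stand beside the 6.87% of all genes that were higher and the 6.63% that were lower in every mouse. Of 18 glutamate receptor genes 6 were higher than in other kept cells in every mouse and 3 were lower. The AMPA receptor subunits *Gria2*, *Gria3* and *Gria4* stood at 1061, 576 and 664 CPM in precursors and at 98.4, 21.4 and 125 CPM in mature oligodendrocytes. Of 13 GABA receptor genes none was higher in every mouse (6.87% of all genes were) and 2 were lower (6.63%), and *Gabrg3* and *Gabbr1* stood at 193 and 174 CPM, near the 229 and 201 CPM of other kept cells. Among 24 channel genes 5 were higher in every mouse and 1 was lower, *Cacna1b*, at 25.1 against 58.5 CPM. *Kcnd2*, a pore subunit of A-type potassium channels, stood at 905 CPM and its partner *Kcnip3* at 329 CPM, against 46.8 and 7.22 CPM in mature cells, whereas the glial inward rectifier *Kcnj10* stood at 210 CPM, below the 358 CPM of mature cells. The part of the neuron marker RNA in these levels was not tested.

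Growth factor, Notch and matrix genes were less uniform. Of 26 growth factor and ligand receptors 4 were higher in precursors in every mouse and 8 were lower, and *Ednrb*, an endothelin receptor, *Erbb4*, a neuregulin receptor, and *Ntrk2*, the BDNF receptor TrkB, stood at 659, 428 and 599 CPM, of which *Ntrk2* was higher than in other cells in 11 of 16 mice. Of 13 Notch pathway genes 1 was lower in every mouse, *Notch2* at 17.99 against 52.9 CPM, and 3 were higher: *Hes5*, the transcriptional repressor downstream of Notch, at 154 CPM in precursors and 5.61 CPM in mature cells, and *Dll1* and *Dll3*, Notch ligands named after their values were seen, at 63.0 and 52.8 CPM. Of the same list, *Dner*, a Notch-binding membrane protein, stood at 368 CPM and *Hes1* at 64.2 CPM. Of 26 matrix and proteoglycan genes 13 were higher in every mouse and 2 were lower, *Sparc* at 448 against 1384 CPM and *Lama2* at 31.1 against 75.02 CPM, both named after their values were seen. *Sparcl1*, the matrix protein hevin that astrocytes also make, was not higher, at 1856 against 2583 CPM. Of 12 regional factors 2 were higher in every mouse and 1 was lower. *Irx1*, a homeobox gene, stood at 59.0 CPM against 1.47 CPM in mature cells, *Six3* at 51.1 against 5.47 CPM, and *Tcf7l2* at 112 against 65.0 CPM.

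Immediate early genes, which neurons and glia switch on within minutes of stimulation and which also respond to tissue dissociation, stood on both sides of their levels in other kept cells. Of 19 such genes 5 were higher in precursors in every mouse and 7 were lower, with a median log2 ratio of 0.12. *Fos*, *Jun* and *Fosb*, subunits of the AP-1 transcription factor, stood at 3652, 3274 and 1478 CPM in precursors and at 1531, 1249 and 461 CPM in other kept cells, and each was higher in 16 of 16 mice. Among the lower ones, named after their values were seen, the transcription factor genes *Atf3* and *Klf2* stood at 27.5 and 75.8 against 320 and 343 CPM, and *Btg2*, an antiproliferative factor, and *Zfp36*, which destabilises mRNA, at 117 and 32.03 against 432 and 307 CPM. Of the 81 ribosomal protein genes 50 were lower in precursors in every mouse and 1 was higher, *Rpl13* at 1830 against 743 CPM. *Rpl41* and *Rps14* stood at 488 and 522 CPM against 803 and 795 CPM. Of 27 mitochondrial genes 5 were lower in every mouse and none was higher, with *mt-Rnr2* at 37073, *mt-Cytb* at 3141 and *mt-Rnr1* at 1948 CPM. Chaperones (3 of 16 higher and 3 lower in every mouse; *Hsp90ab1* 1668, *Hsp90b1* 1182 and *Hsp90aa1* 1101 CPM), cholesterol synthesis genes (1 of 22 higher; *Hmgcs1* 117 and *Sqle* 98.0 CPM) and interferon and antigen presentation genes (1 of 12 higher and 4 lower; *H2-D1* 313, *Ifi27* 235 and *B2m* 191 CPM) had median log2 ratios to other cells of 0.01, 0.09 and −0.39.

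Precursors had few estrogen receptor transcripts. *Esr1* was seen in 58 of 2298 precursors (2.52%, exact 95% interval 1.92 to 3.25%, median 881 UMIs per cell), in 2.94% of endothelial cells (median 743 UMIs) and in 2.49% of mature oligodendrocytes (median 810 UMIs). The share in precursors was at the level of these other cells and is not read as expression. Whether it was background was not tested. In neurons *Esr1* was seen in 8.75% (median 1767 UMIs), and after cells were thinned to 500 UMIs, which 1965 of the 2298 precursors and 6880 of the 7597 neurons reached, the shares were 1.63% in precursors and 2.46% in neurons. In microglia *Esr1* was seen in 6.64% (median 653 UMIs), and in 4.46% after the same thinning, above the thinned share of neurons. *Esr2*, *Pgr*, an estrogen-induced steroid receptor, and *Gper1*, the membrane estrogen receptor, were seen in 0.740%, 0.435% and 0.0870% of precursors, the last being 2 cells against 5.10% of endothelial cells. The *Esr1* level in precursors was 34.0 ± 32.1 CPM in WT oil, 26.0 ± 13.5 in WT tamoxifen, 17.7 ± 14.8 in cKO oil and 37.7 ± 32.2 in cKO tamoxifen mice, resting on 1 to 7 UMIs a mouse. These values overlapped between WT and cKO, and because a 3′ tag can lie outside the floxed part of the gene they check nothing about the knockout. Of 23 nuclear receptor genes none was higher than in other cells in every mouse and 2 were lower, and *Nr3c1*, the glucocorticoid receptor, was the most abundant at 279 CPM, with *Thra* at 166 and *Pgrmc1* at 132 CPM.

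A small part of the precursors carried mitosis genes. At least 2 of the 25 listed genes were detected in 71 precursors (3.09%, exact 95% interval 2.42 to 3.88%), and after thinning to 500 UMIs in 1.98%. Thinned shares were 1.62% in microglia, 0.570% in committed cells, 0.291% in neurons and 0.120% in mature oligodendrocytes. *Top2a*, the topoisomerase of dividing cells, stood at 63.3 CPM in precursors against 6.36 CPM in other cells, and *Prc1*, which bundles the mitotic spindle, at 65.8 against 11.3 CPM. The spindle motor gene *Kif11* did not separate the classes, at 78.2 against 81.0 CPM. Of 19 mitosis genes 1 and of 15 DNA replication genes 0 were higher in every mouse, near the 6.87% of all genes, with the replication clamp *Pcna* at 148 against 86.0, *Rrm1* at 45.0 against 21.6 and *Mcm4* at 29.2 against 16.8 CPM.

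The comparisons between groups of mice asked whether tamoxifen or the genotype altered the number or the state of the precursors. Precursors were 5.21, 4.79 and 3.64% of kept cells in WT oil mice and 4.75, 4.17, 2.91, 3.38 and 2.87% in WT tamoxifen mice. They were 6.52, 4.10, 3.63 and 5.19% in cKO oil mice and 3.63, 4.45, 5.59 and 3.33% in cKO tamoxifen mice. The ranges of all 4 groups overlapped. The mean was lower with tamoxifen by 0.93 percentage points in WT (4.55 ± 0.814 against 3.62 ± 0.824%, p = 0.179) and by 0.61 points in cKO (4.86 ± 1.28 against 4.25 ± 1.01%, p = 0.486), neither past the spread between mice by two-sided exact permutation tests. The difference in WT ranged from −1.38 points, without WT oil mouse 3, to −0.60 points, without WT oil mouse 1, and was −0.12 points without precursors holding 2 neuron markers and −2.02 points with a mitochondrial share under 5% (exact permutation p = 0.0357, adjusted p = 0.381). In cKO it ranged from −1.06 points, without cKO tamoxifen mouse 3, to −0.06 points, without cKO oil mouse 1. Within fours of library numbers the WT tamoxifen mouse was lower than the WT oil mouse in 3 of 3 (mean −0.60 points, exact permutation p within fours = 0.25, the smallest that 3 pairs allow), and in cKO it was lower in 2 of 4 (−0.61 points, exact p = 0.75). The 16 tests over mice of the 4 shares as first defined were adjusted together, with a lowest adjusted p of 0.61, and over the alternatives the lowest adjusted p was 0.229.

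Within the oligodendrocyte lineage (precursors, committed and mature cells together), precursors made up 31.8, 26.9 and 21.8% in WT oil mice and 22.2, 21.2, 19.3, 22.0 and 15.5% in WT tamoxifen mice. Their share was 21.9, 16.1, 19.8 and 20.9% in cKO oil mice and 21.3, 22.9, 22.6 and 20.1% in cKO tamoxifen mice. Both WT oil mice above 26% lay over every other mouse, and the WT oil mouse within the range of the others was mouse 3, which stood apart. The difference was −6.82 points for tamoxifen in WT (p = 0.107) and −7.18 points for cKO against WT under oil (p = 0.114, adjusted p = 0.61 for each, exact permutation tests), and both rest on the same 3 WT oil mice. Without WT oil mouse 1 they were −4.34 and −4.70 points, without WT oil mouse 3 −9.36 and −9.71 points, and without precursors holding 2 neuron markers −2.75 and −3.52 points. Within fours of library numbers each was below 0 in 3 of 3, at −9.64, −5.77 and −2.50 points for tamoxifen in WT and −9.94, −10.82 and −2 points for cKO against WT under oil (exact permutation p within fours = 0.25 for each, the smallest possible; adjusted p = 0.667). In cKO mice tamoxifen differed from oil by 2.07 points (exact permutation p = 0.2). In droplet data of dissociated tissue, fewer precursors and a smaller yield of them cannot be told apart.

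The share of committed cells among precursors and committed cells was 13.5 ± 3.16% in WT oil, 13.7 ± 4.87% in WT tamoxifen, 14.4 ± 3.36% in cKO oil and 13.5 ± 1.92% in cKO tamoxifen mice, with exact permutation p between 0.743 and 1 in the 4 comparisons. Within fours of library numbers the tamoxifen difference in WT was below 0 in 3 of 3, against the sign of the group means, at −2.33, −0.28 and −3.87 points (mean −2.16, exact permutation p within fours = 0.25, the smallest possible). In cKO tamoxifen mice were the lower in 2 of 4, cKO oil mice were above WT oil mice in 2 of 3, and under tamoxifen cKO mice were above WT mice in 2 of 4. The share of precursors with mitosis genes was 1.10, 2.56 and 2.56% in WT oil mice and 3.50, 6.25, 3.92 and 4.14% in cKO oil mice. These groups did not overlap, on 1, 4 and 3 such cells against 7, 7, 6 and 7. The means differed by 2.38 points (2.08 ± 0.846 against 4.45 ± 1.23%), with an exact permutation p of 0.0571, which is the smallest that 3 against 4 mice allow and cannot reach 0.05 (adjusted p = 0.61). After thinning to 500 UMIs, with 209 WT oil and 380 cKO oil precursors left under the rule, the difference was 1.78 points on 1 and 8 such cells (exact permutation p = 0.114). Within fours of library numbers the cKO oil mouse was the higher in 3 of 3 (mean 2.48 points, exact permutation p within fours = 0.25, the smallest possible). WT tamoxifen mice had 4.68, 1.54, 3.09, 2.69 and 1.83% and cKO tamoxifen mice 4.00, 4.76, 1.74 and 1.56%, overlapping each other and the oil groups of their own genotype.

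**Figure D3:**
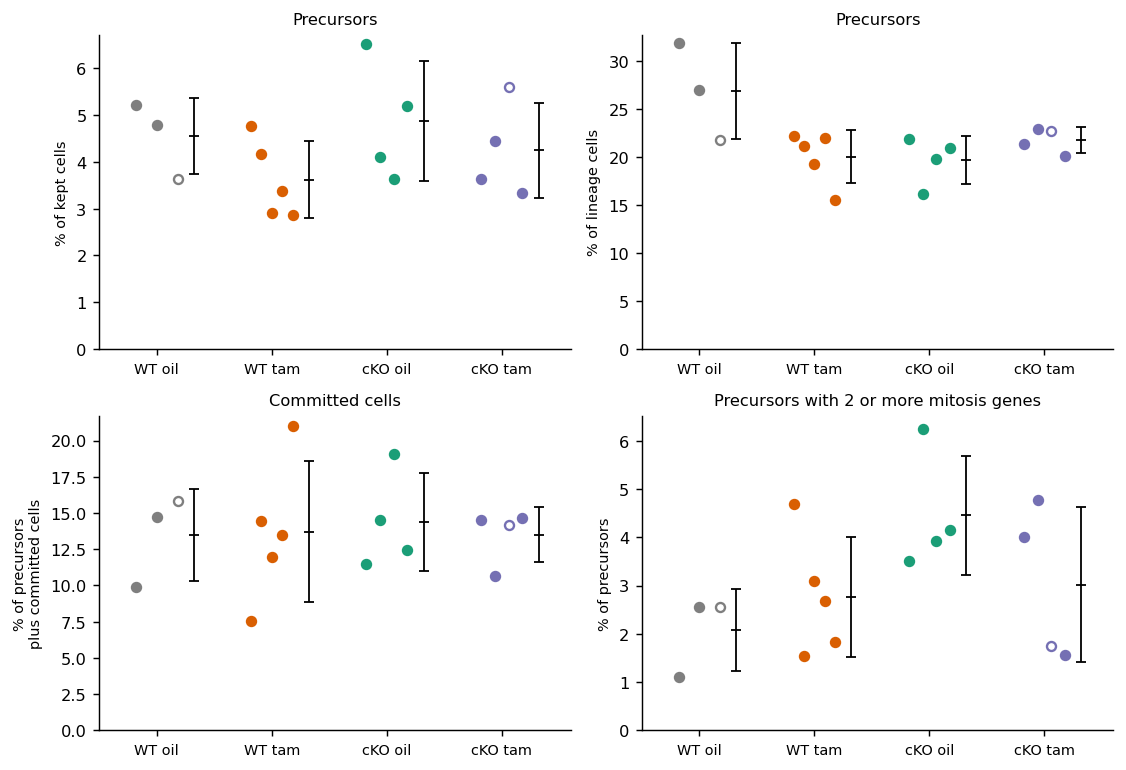
Shares per mouse (y axes, percent) of precursors among kept cells, precursors among lineage cells, committed cells among precursors plus committed cells, and precursors with 2 or more mitosis genes, by group (x axis), with mean ± SD beside the points and open symbols for the 2 libraries that stood apart. The cKO oil mice lie at 3.50 to 6.25% in the last panel and the WT oil mice at 1.10 to 2.56%, and the groups overlap in the panels of precursors among kept cells and of committed cells.

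Gene by gene, tamoxifen left no difference in WT precursors that passed the test. In edgeR's quasi-likelihood test on UMIs summed per mouse, 0 of 4835 genes had an adjusted p under 0.05 (0% called), 167 had an unadjusted p under 0.05 (3.45%; 79 higher and 88 lower with tamoxifen) and DESeq2 called 0 (76 at unadjusted p under 0.05). The smallest adjusted p was 0.999. For 170 genes (3.52%) the WT oil and WT tamoxifen mice did not overlap, and the 5 of these with the smallest p are given as values that did not pass. *Klf6*, a zinc finger factor induced by injury, stood at 537, 583 and 444 CPM in WT oil mice and 386, 307, 266, 235 and 348 CPM in WT tamoxifen mice (log2 fold change −0.77 ± 0.22 SE). *Dusp1*, a phosphatase that shuts down MAP kinases, stood at 537, 450.5 and 461 CPM against 303, 339, 289.6, 309.8 and 302 CPM (−0.64 ± 0.20). In both genes every tamoxifen mouse lay below every oil mouse. *Tceal8* (1.05 ± 0.30), *Hdac1*, a histone deacetylase that precursors need to differentiate (1.13 ± 0.37), and *Hccs*, which attaches heme to cytochrome c (−1.73 ± 0.52), were the others, each with an adjusted p of 0.999 by edgeR.

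*Klf6* and *Dusp1* belong to the immediate early genes, a list whose tested members all lay on one side. All 13 tested members had a log2 fold change below 0 with tamoxifen in WT, with a median of −0.48 against 0.02 over all genes. None passed the adjusted threshold, and 5 had an unadjusted p under 0.05, all lower, where 1.82% of all genes were lower at that p. For 5 the groups did not overlap, where they did not for 3.52% of all genes. Besides *Klf6* and *Dusp1* these 5 at unadjusted p were *Junb* (−0.76 ± 0.26), *Jund* (−0.43 ± 0.20) and *Klf2* (−1.01 ± 0.38), named after their values were seen. The most abundant members *Fos*, *Jun* and *Fosb* had −0.25 ± 0.20, −0.27 ± 0.19 and −0.32 ± 0.18. Summed over the list, precursors held 15669, 13865 and 14757 CPM in WT oil mice and 13467, 11682, 10094, 10058 and 12096 CPM in WT tamoxifen mice. The lowest oil mouse thus lay just above the highest tamoxifen mouse. In cKO the groups overlapped, with 15329, 12047, 13167 and 9083 CPM under oil and 13684, 9781, 11730 and 10334 CPM under tamoxifen (10 of 13 genes below 0, median −0.09). Within fours of library numbers the tamoxifen mouse differed from the oil mouse by −2202, −2183 and −4663 CPM in WT and by −1645, −2266, −1437 and 1251 CPM in cKO. Tamoxifen mice were thus lower in 3 of 3 fours in WT and in 3 of 4 in cKO, and these differences were not tested. In all other kept cells the sum was 7768 ± 790 CPM in WT oil and 6995 ± 808 CPM in WT tamoxifen mice, which overlapped. Without the libraries that stood apart the 13 genes were again below 0, with a median of −0.53. Precursors holding 2 or more neuron markers moved with this comparison, at 40.7, 39.7 and 39.3% of precursors in WT oil and 22.8, 20, 29.0, 30.1 and 38.5% in WT tamoxifen mice, with no overlap. The neuron marker sum over all precursors leaned the other way and overlapped, at 1756 ± 224 CPM in WT oil and 2092 ± 686 CPM in WT tamoxifen mice. Median UMIs per precursor were 881, 1232.5 and 1007 in WT oil and 652, 863.5, 954.5, 828.5 and 1159 in WT tamoxifen mice. The part of depth in these shares was not tested. Without precursors holding 2 or more neuron markers the 13 genes were still below 0 (median −0.41), but 1 in place of 5 had an unadjusted p under 0.05, and in cKO 12 of 13 were below 0 (median −0.24, 1 lower at unadjusted p).

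**Figure D4:**
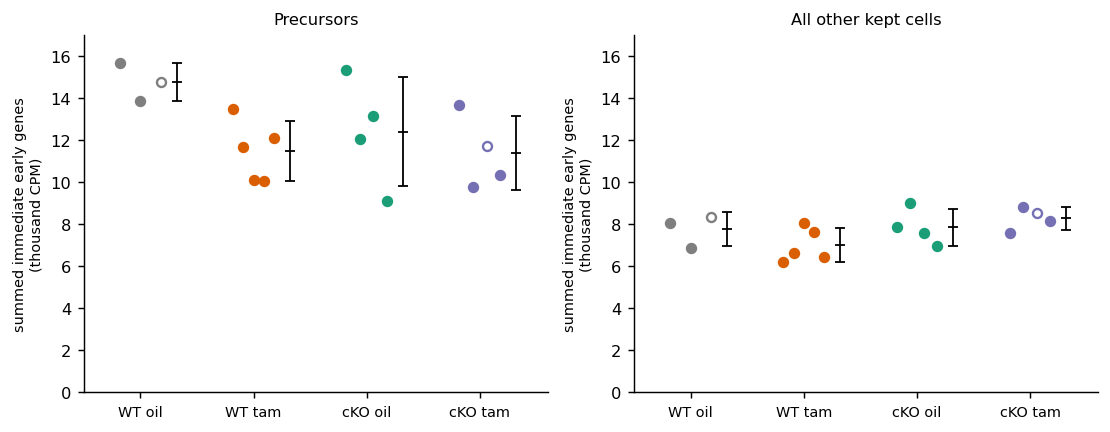
Summed CPM of the 20 listed immediate early genes (y axes, in units of 1000 CPM) per mouse in precursors and in all other kept cells, by group (x axis), with mean ± SD beside the points and open symbols for the 2 libraries that stood apart. In precursors the WT oil mice lie at 13865 to 15669 CPM and the WT tamoxifen mice at 10058 to 13467 CPM, whereas the cKO groups overlap.

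In cKO precursors tamoxifen likewise gave 0 adjusted calls of 4835 (0%) by edgeR, with 206 genes at unadjusted p under 0.05 (4.26%; 93 higher, 113 lower) and 0 calls by DESeq2 (99 unadjusted). The groups did not overlap for 133 genes (2.75%). *Bcl6*, a transcriptional repressor known from lymphocytes and neurogenesis, had the smallest p. It stood at 85.8, 82.2, 113 and 97.7 CPM in cKO oil mice and at 46.2, 0, 18.3 and 7.85 CPM in cKO tamoxifen mice, on 13, 12, 20 and 18 UMIs against 4, 0, 4 and 1. All 4 tamoxifen mice lay below all 4 oil mice, and the fitted log2 difference was −2.39 ± 0.47 (SE; adjusted p = 0.187 by edgeR and 0.272 by DESeq2). WT mice, at 23.3, 66.4 and 41.1 CPM under oil and 60.5, 55.2, 81.1, 40.2 and 77.4 CPM under tamoxifen, lay between the cKO groups with some overlap. The adjusted p of *Bcl6* ranged from 0.00199 to 0.9999 over 25 alternatives and passed in 2 of them: 0.0436 without cKO tamoxifen mouse 1, and 0.00199 with no filter on low counts. *Bcl6* lay on the same side as the neuron marker sum, given below for *Elavl3*, which did not overlap between the cKO groups. The part of neuron RNA in the *Bcl6* difference was not tested. Leaving out precursors with 2 or more neuron markers gave −1.85 for *Bcl6* (adjusted p = 0.9997).

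The other 4 genes named in cKO mice did not pass either. *Spry4*, a feedback inhibitor of receptor tyrosine kinases such as the one encoded by *Pdgfra*, stood at 6.60, 27.4, 67.7 and 70.6 CPM under oil and 162, 117, 123 and 165 CPM under tamoxifen (1.61 ± 0.42, adjusted p = 0.965 by edgeR). It passed in 1 of 27 alternatives, with no filter on low counts (adjusted p = 0.0213). WT mice stood at 52.1 to 166 CPM under either treatment and overlapped the cKO oil mice. *Agrn*, the proteoglycan agrin, stood at 119, 95.9, 79.0 and 81.4 CPM under oil and 243, 169, 219 and 126 CPM under tamoxifen (1.01 ± 0.30). *Lrif1* (1.04 ± 0.31) and the neuronal RNA-binding protein gene *Elavl3* (−0.98 ± 0.28) completed the 5. *Elavl3* lay on the same side as the neuron marker sum, which was 2600 ± 203 CPM in cKO oil and 1922 ± 190 CPM in cKO tamoxifen precursors with no overlap. Fibroblast markers lay on the side of *Spry4* and *Agrn*, also with no overlap. They summed to 6.60, 0, 11.3 and 5.43 CPM under oil and 23.1, 12.99, 27.4 and 118 CPM under tamoxifen. The part of either marker set was not tested. Without precursors holding 2 or more neuron markers *Elavl3* stood at −1.18, *Spry4* at 1.17 and *Agrn* at 0.69.

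The test of the difference between the tamoxifen effects in WT and cKO gave 0 adjusted calls (0%) by edgeR, 243 genes at unadjusted p under 0.05 (5.03%) and 0 by DESeq2 (116 unadjusted). For 299 genes (6.18%) oil and tamoxifen did not overlap in at least 1 genotype. *Ranbp9*, a scaffold protein, did not overlap in either, and in opposite directions. It stood at 46.7, 52.2 and 32.9 CPM in WT oil, 68.1, 78.8, 86.9, 74.6 and 101 CPM in WT tamoxifen, 92.4, 68.5, 79.0 and 114 CPM in cKO oil and 34.7, 65.0, 36.6 and 47.1 CPM in cKO tamoxifen mice. The interaction was −1.89 ± 0.47 on the log2 scale (edgeR adjusted p = 0.937). The unannotated *RP23-230F2.8* had the same pattern (−2.91 ± 0.75; adjusted p = 0.00249 with no filter on low counts and past the threshold in none of its other 24 alternatives), but it had 0 and 4.57 CPM in both libraries that stood apart, which lie in WT oil and cKO tamoxifen. *Bcl6* (−2.76 ± 0.65), *Mtss1*, an actin and membrane binding protein (1.24 ± 0.33), and *Rap1gap*, which turns off the GTPase Rap1 (1.02 ± 0.30), had the same adjusted p. All 13 immediate early genes had an interaction above 0 (median 0.39, 2 at unadjusted p under 0.05 where 2.34% of all genes were higher). Without precursors holding 2 neuron markers 9 of the 13 were above 0, with a median of 0.09. Of 15 mitochondrial genes 14 had an interaction below 0 (median −0.48, 3 at unadjusted p where 2.69% of all genes were lower), and without the libraries that stood apart 16 of 16 did (median −0.69, 7 at unadjusted p). Without precursors holding 2 neuron markers 10 of 13 did (median −0.45, 1 at unadjusted p). The most abundant of them, *mt-Rnr2*, was the 1 not below 0, at 0.03 ± 0.53. Summed over the list, precursors held 43780 ± 15223 CPM in WT oil, 45545 ± 13820 in WT tamoxifen, 58788 ± 27772 in cKO oil and 58206 ± 19116 in cKO tamoxifen mice, which overlapped, and the mitochondrial share of precursor UMIs ranged from 2.56 to 9.57% between mice.

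Under oil, cKO and WT precursors differed in 0 genes at adjusted p under 0.05 (0%) by edgeR, 241 at unadjusted p under 0.05 (4.98%; 122 higher and 119 lower in cKO) and 0 by DESeq2 (137 unadjusted), and did not overlap for 265 genes (5.48%). These values share the WT oil mice with the tamoxifen comparison in WT. *Hes5*, the Notch effector that keeps precursors from differentiating, had the smallest p. It stood at 292, 199 and 230.3 CPM in WT oil mice (25, 42 and 28 UMIs) and at 59.4, 103, 90.3 and 119 CPM in cKO oil mice (9, 15, 16 and 22 UMIs). Every cKO mouse lay below every WT mouse, and the fitted log2 difference was −1.29 ± 0.27 (SE; edgeR adjusted p = 0.283, range 0.0888 to 0.933 over 28 alternatives, none past 0.05). With tamoxifen the genotypes lay closer, at 182, 221, 191, 132 and 147 CPM in WT and 139, 104, 133 and 126 CPM in cKO mice (−0.45 ± 0.24, adjusted p = 0.999), and the groups overlapped. The fold was −1.31 without the libraries that stood apart and −1.23 without precursors holding 2 neuron markers.

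Of the other 4 Notch genes tested none had an unadjusted p under 0.05, and 3 lay below 0 (median −0.20; 2 of 4 and 0.15 without the libraries that stood apart), with *Dner* at −0.25 ± 0.23 and *Hes1* at −0.24 ± 0.46. *Gm12184* (−1.31 ± 0.30), *Mtss1* (−0.95 ± 0.25), *Tox4*, an HMG-box protein (1.57 ± 0.40), and *RP23-230F2.8* (2.14 ± 0.56; adjusted p = 0.00134 with no filter on low counts) were the other 4 genes named by the rule. *Mtss1* stood at 198, 237 and 288 CPM in WT oil and 106, 95.9, 124 and 163 CPM in cKO oil mice. All 13 immediate early genes again lay below 0 (median −0.35, 4 at unadjusted p where 2.46% of all genes were lower; 12 of 13, −0.11 and 0 without precursors holding 2 neuron markers), and so did all 6 interferon and antigen presentation genes (median −0.59, 3 at unadjusted p), among them *H2-D1* (−0.71 ± 0.27) and *B2m* (−0.56 ± 0.25), both parts of MHC class I. The interferon median was −0.32, with 0 at unadjusted p, without the libraries that stood apart, and −0.38, with 3 of 4 below 0 and 2 at unadjusted p, without precursors holding 2 neuron markers. Microglial markers summed to 66.4 ± 25.3 CPM in WT oil and 44.0 ± 19.3 CPM in cKO oil precursors and overlapped. Fibroblast markers summed to 46.7, 80.6 and 16.45 CPM in WT oil and 6.60, 0, 11.3 and 5.43 CPM in cKO oil precursors, with no overlap. The part of either marker set was not tested. All 5 tested mitosis genes lay above 0 (median 0.43), none at unadjusted p under 0.05, and without the libraries that stood apart 6 of 7 did (median 0.92, 1 higher at unadjusted p). Neuron markers summed to 1762, 1977 and 1530 CPM in WT oil and 2382, 2863, 2629 and 2525 CPM in cKO oil precursors, with no overlap. The share of precursors with 2 or more neuron markers ran the other way, also with no overlap, at 40.7, 39.7 and 39.3% in WT oil and 25.5, 35.7, 36.0 and 25.4% in cKO oil mice. Without those precursors *Gm12184*, *Mtss1* and *RP23-230F2.8* stood at −1.05, −0.75 and 3.01, and *Tox4* was too sparse to be fitted.

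Under tamoxifen, cKO and WT precursors differed in 0 genes (0%) by edgeR, 186 at unadjusted p under 0.05 (3.85%; 85 higher, 101 lower) and 0 by DESeq2 (90 unadjusted), and the groups did not overlap for 73 genes (1.51%). *Agrn* was named again, at 98.3, 118, 86.9, 74.6 and 38.7 CPM in WT and 243, 169, 219 and 126 CPM in cKO mice (1.18 ± 0.29, edgeR adjusted p = 0.999). The cKO tamoxifen mice were thus the high group for this gene in both comparisons that include them. *Pla2g7*, a secreted phospholipase that inactivates platelet-activating factor (−1.23 ± 0.30), *Dhx15*, a splicing helicase (−0.97 ± 0.26), *Gas1*, a surface receptor of hedgehog signalling (0.97 ± 0.26), and *Pagr1a*, a partner of histone methyltransferases (1.33 ± 0.38), made up the 5, all at an adjusted p of 0.999. Members of 9 of the 20 lists had an unadjusted p under 0.05, where 2.09% of all genes were lower and 1.76% higher. Growth factor and ligand receptors had 3 of 11 lower in cKO, among them *Ednrb* (−0.46 ± 0.18), and none higher (8 of 11 below 0, median −0.37). They had 3 of 12 lower without the libraries that stood apart (median −0.24), and 2 of 7 lower and 1 higher without precursors holding 2 neuron markers (−0.52). Astrocyte markers were also lower in cKO, at 1580 ± 156 CPM in WT tamoxifen and 1149 ± 108 CPM in cKO tamoxifen precursors, with no overlap. The part of astrocyte RNA in these differences was not tested. Mitochondrial genes had 2 of 15 lower and 13 of 15 below 0 (median −0.34), 4 of 16 lower without the libraries that stood apart (−0.40), and 1 of 13 lower without precursors holding 2 neuron markers (−0.30). Channels had 2 of 15 lower (median −0.09), and 0 of 15 and 0 of 12 under these alternatives. Of the 17 lineage factors 1 was higher, *Olig2* at 0.41 ± 0.17, and 1 was lower. Without the libraries that stood apart 0 of 18 were higher and 0 lower. Without precursors holding 2 neuron markers 1 of 15 was higher and 1 lower. Of the 6 interferon and antigen presentation genes 1 was lower, *B2m* at −0.63 ± 0.22. Of 15 chaperones 1 was higher and 12 lay above 0 (7 of 15 without the libraries that stood apart), and the precursor identity, myelin and ribosomal protein genes had 1 lower each. The myelin median was 0.03. Without the libraries that stood apart it was −0.12, with 3 of 11 myelin genes lower, and 2 of 77 ribosomal protein genes were lower.

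**Figure D5:**
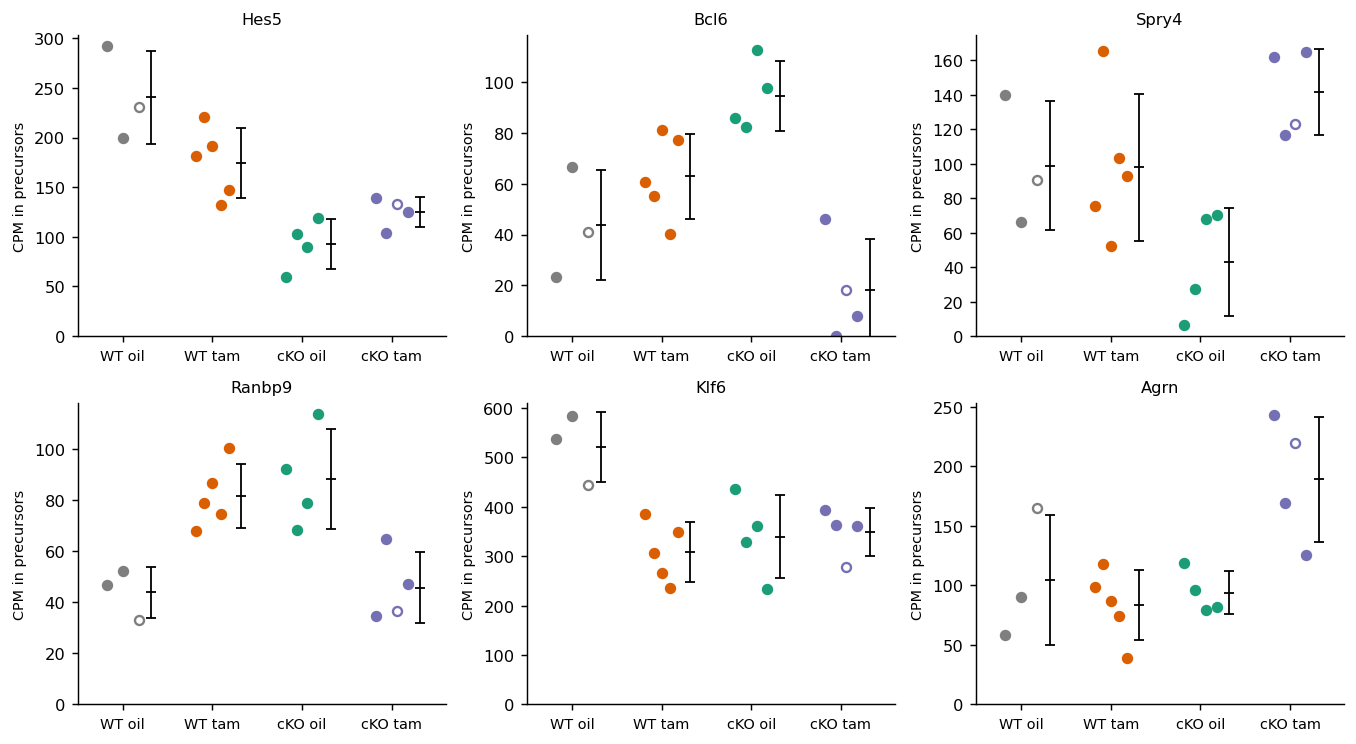
CPM in precursors (y axes) of *Hes5*, *Bcl6*, *Spry4*, *Ranbp9*, *Klf6* and *Agrn* per mouse, by group (x axis), with mean ± SD beside the points, cut at 0, and open symbols for the 2 libraries that stood apart. *Hes5* lies at 199 to 292 CPM in WT oil and 59.4 to 119 CPM in cKO oil mice, and *Bcl6* at 82.2 to 113 CPM in cKO oil and 0 to 46.2 CPM in cKO tamoxifen mice; no difference shown passed the adjusted threshold.

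The precursor identity genes lay on both sides of 0 in each comparison. The 24 precursor identity genes were split 12 to 12 around 0 for tamoxifen in WT (median −0.01), 10 above and 14 below for tamoxifen in cKO (−0.03), and 11 above and 13 below for cKO against WT under oil (−0.03), and at most 2 of them had an unadjusted p under 0.05 in any of the 5 comparisons. Without the libraries that stood apart the splits were 12 to 12 (−0.01), 14 above and 10 below (0.04), and 6 above and 18 below (−0.13). The 11 myelin genes tested had medians of 0.10, 0.16 and −0.19 and the 7 commitment genes 0.10, 0.01 and 0.03 in the same order, against 0.02, −0.02 and 0.02 over all genes. *Olig1*, the lineage factor with the most UMIs, had −0.12 ± 0.18, 0.09 ± 0.17 and −0.21 ± 0.18. Glutamate receptors (12 tested) had medians of 0.09, −0.19 and 0.22, GABA receptors (8) 0.03, −0.20 and 0.27, channels (15) 0.06, −0.22 and 0.12, and growth factor and ligand receptors (11) 0.03, −0.38 and −0.04. The matrix genes (17) had 0.15, 0.12 and −0.05, nuclear receptors (9) −0.04, −0.22 and 0.09, cholesterol synthesis genes (9) 0.12, 0.05 and −0.12, chaperones (15) 0.07, 0.04 and 0.14, regional factors (2) −0.18, −0.12 and 0.15, and ribosomal protein genes (77) −0.03, 0.12 and −0.15. The mitochondrial genes (15) had 0.32, −0.13 and 0.17 and the interferon and antigen presentation genes (6) −0.16, 0.10 and −0.59. Among the lists that leaned to one side, 13 of 15 mitochondrial genes lay above 0 for tamoxifen in WT, with 2 higher at unadjusted p where 1.63% of all genes were higher. They were 15 of 16 without the libraries that stood apart (median 0.54, 6 at unadjusted p) and 10 of 13 without precursors holding 2 neuron markers (0.28, 1 at unadjusted p), while the summed level given above overlapped between the groups. Likewise 14 of 15 channel genes lay above 0 in cKO against WT under oil, all 9 nuclear receptors below 0 for tamoxifen in cKO, and of the 77 ribosomal protein genes 59 above 0 for tamoxifen in cKO and 57 below 0 in cKO against WT under oil. Without the libraries that stood apart the latter 4 counts were 11 of 15, 8 of 9, 51 of 77 and 46 of 77, and without precursors holding 2 neuron markers 10 of 12, 4 of 7, 54 of 73 and 58 of 73. Among the medians that changed sign without those libraries were glutamate receptors for tamoxifen in WT (0.09 to −0.19) and, in cKO against WT under oil, nuclear receptors (0.09 to −0.20) and cholesterol synthesis genes (−0.12 to 0.09), while GABA receptors went from 0.27 to 0.05. The 17 lineage factors had −0.13, 0.06 and −0.05, with 4 of them, *Hes5* included, lower at unadjusted p in cKO under oil, where 2.46% of all genes were. These were 2 of 18 without the libraries that stood apart and 1 of 15 without precursors holding 2 neuron markers. For tamoxifen 2 of the 17 were lower in WT, where 1.82% of all genes were, and 2 higher in cKO, where 1.92% were, at unadjusted p. Both counts were 0 of 18 without those libraries and 0 of 15 without precursors holding 2 neuron markers. The interaction was higher for 4, where 2.34% of all genes were, and for 2 of 18 and 0 of 15 under the same alternatives. The single DNA replication gene tested, *Pcna*, had 0.69, 0.12 and 0.70. No member of any of the 20 lists passed the adjusted threshold in any comparison.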

How the data were processed

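Each of 16 Drop-seq libraries, 1 per female mouse, gave a deposited matrix of whole UMI counts per gene and cell barcode, in which the fewest genes of a barcode were 100 in the 2 libraries that stood apart and 20 in the others. Per the labels, the submitters' processing notes name STAR 2.6, Seurat and mm10; the counting program and annotation are not given in the sources used here. Barcodes were filtered at the study's limits. The precursor rule, the 20 gene lists and the alternatives were chosen with earlier results of these data known. Replicates were numbered in accession order within groups.

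UMIs of precursors were summed per mouse (76987 to 218762), since cells are not replicates, where the study tested single cells. Genes were filtered with filterByExpr and fitted in edgeR 4.0.16 (R 4.3.3, limma 3.58.1, TMM, glmQLFit and glmQLFTest, 4 groups in 1 fit, Benjamini-Hochberg over 4835 genes). DESeq2 1.42.0 was an alternative. Shares were compared by two-sided exact permutation of mice (scipy 1.17.1), adjusted over 16 tests, and again with mice permuted only within fours of successive library numbers. Ratios to other cells used 10 added CPM. Scrublet (scanpy 1.11.5, expected doublet rate 0.05) marked doublets, which stayed in. The scripts were tested on simulated data. Named genes were the rule's genes, estrogen receptor genes and *Nkx2-1*, the 3 most abundant of each list, the 12 with the largest ratio to other cells, and, with no adjusted call, the 5 smallest unadjusted p per comparison whose groups did not overlap (for the interaction, tamoxifen against oil in at least 1 genotype). Marker genes were placed by the mm10 (GRCm38.p6) annotation. List symbols without a match in the files were left out. Some genes that the naming rule picks are not reported here.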

Additional observations from a re-analysis of the deposited data

Results flagged for a closer look

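Of 117 sets of values from 4 or 5 mice of a group, 11 held 1 mouse far from the others, and chance alone gives about 1 in 20. The committed share was 10.6% in cKO tamoxifen mouse 2 against 14.2 to 14.7% in the other cKO tamoxifen mice, on 10 committed cells. Median UMIs per precursor were 634.5 in cKO oil mouse 1 against 946 to 1004. Mural markers summed to 292 CPM in precursors of WT tamoxifen mouse 2 against 53.0 to 116 CPM. Fibroblast markers summed to 261 CPM in WT tamoxifen mouse 3 against 5.74 to 31.5 CPM, and to 118 CPM in cKO tamoxifen mouse 4 against 12.99 to 27.4 CPM. Hemoglobin genes summed to 1308 CPM in WT tamoxifen mouse 4 against 114 to 248 CPM, and to 1884 CPM in cKO oil mouse 3 against 97.7 to 158 CPM. Among named genes, *Dhx15* stood at 209 CPM in WT tamoxifen mouse 5 against 129 to 145 CPM, *Gas1* at 51.6 CPM in WT tamoxifen mouse 4 against 69.5 to 75.7 CPM, *Mtss1* at 191 CPM in WT tamoxifen mouse 3 against 163 to 166 CPM, and *Tox4* at 114 CPM in cKO tamoxifen mouse 3, a library that stood apart, against 57.8 to 65.0 CPM.

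For *Ranbp9* and *RP23-230F2.8* every tamoxifen mouse lay above every oil mouse in WT and below every oil mouse in cKO. The interaction was −1.89 and −2.91 on the log2 scale, with an edgeR adjusted p of 0.937 for each. With no filter on low counts *RP23-230F2.8* passed (adjusted p = 0.00249).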

How the results depend on the processing

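The labels number the libraries from 1 to 16 and do not say which mice were processed together, so fours of successive library numbers served as a replicate block (for shares chosen after seeing the data). As a term in edgeR it left the calls at 0 in all 5 comparisons. Away from single left-out mice, 132 of 144 values for shares kept their direction, and no share passed its adjusted threshold under any alternative. Of the 12 that turned, the precursor share of kept cells in cKO against WT oil (0.32 points) became −0.65 with more than 500 genes per cell, −0.87 with a mitochondrial share under 5% and −0.14 without the 2 libraries that stood apart. The committed share turned to 1.90 points for tamoxifen in cKO and to −1.21 points for cKO against WT oil after thinning, to −2.22 for tamoxifen in WT and −0.88 for cKO against WT oil without precursors holding 2 neuron markers, and to 0.26 (more than 500 genes) and 2.66 (mitochondrial share under 5%) for cKO against WT under tamoxifen. With the replicate block the committed share turned to −2.16 points for tamoxifen in WT and to 0.69 points for cKO against WT under tamoxifen. The mitosis share for tamoxifen in cKO became 0.77 points with a mitochondrial share under 5%. Leaving out 1 mouse at a time moved the precursor share of kept cells in cKO against WT oil between −0.24 and 0.73, the committed share between −1.62 and 1.74 (tamoxifen in WT), −1.83 and 0.69 (tamoxifen in cKO), −0.92 and 2.05 (cKO against WT oil) and −1.73 and 1.63 (cKO against WT tamoxifen), and the mitosis share in cKO against WT tamoxifen between −0.33 and 0.74.

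With no filter on low counts the 0 adjusted calls became 2 (tamoxifen in WT), 12 (tamoxifen in cKO), 3 (interaction), 8 (cKO against WT oil) and 11 (cKO against WT tamoxifen) of 20344 genes. Of the 19 genes concerned 4 had over 50% of their UMIs in 1 precursor, *Nov*, *Avp* (456 of 624 UMIs in 1 precursor of WT tamoxifen mouse 1), *Sst* (299 of 368 in 1 precursor of cKO oil mouse 4) and *Pomc* (55 of 69 in 1 precursor of cKO tamoxifen mouse 2), named after their values were seen. *Bcl6*, *Spry4*, *RP23-230F2.8* and *Ftl1* were spread over 125 to 248 precursors. Leaving out 1 mouse gave 0 to 1 calls for tamoxifen in cKO, the 1 being *Bcl6* without cKO tamoxifen mouse 1, and 0 in the other 4 comparisons. The other 54 counts of calls, shared barcodes left out included (chosen after seeing the data), stayed at 0. With 84 to 230 precursors a mouse, genes outside the 4835 tested were too sparse to compare.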

Other observations

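Some precursor barcodes held a large part of all precursor UMIs of a gene. In WT tamoxifen mouse 1, 1 precursor held 456 of the 624 UMIs that all precursors had of *Avp*, the vasopressin gene. In cKO oil mouse 4, 1 precursor held 299 of the 368 UMIs of *Sst*, the somatostatin gene. All 55 UMIs of *Pomc*, the precursor of melanocortins, in cKO tamoxifen mouse 2 and all 42 of *Npy*, neuropeptide Y, in cKO tamoxifen mouse 1 lay in 1 precursor each. *Ptgds*, the prostaglandin D synthase gene, had 226 of its 494 UMIs in 1 precursor of WT tamoxifen mouse 3. The barcodes with most *Avp*, *Npy* and *Sst* held 5197, 4250 and 9454 UMIs in all and 6, 6 and 5 of the 7 neuron markers, and those with most *Pomc* and *Ptgds* held 1017 and 1507 UMIs and 1 neuron marker each. Scrublet called none of the 5 a doublet, and the source of these UMIs was not tested. These genes were named after their values were seen.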
